A study of Mus musculus with 6 samples.

Results

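Amacrine cells are the inhibitory interneurons of the inner retina, and they keep a set of transcription factors after development by which their subtypes can be told apart. Transmitter enzymes and neuropeptides of the same cells can be regulated by activity, whereas these factors are used as markers of which cell is present. The 2 kinds of gene are read side by side here, and the number of cells was not measured. The set comprised 8 transcription factors, Tfap2a, Tfap2c, Pax6, Ebf3, Neurod2, Meis2, Nhlh2 and Barhl2, together with Dab1, which codes for an adaptor protein of reelin signalling and not for a transcription factor, and which marks the AII amacrine cell. All 9 genes had probes that carry their symbol alone, 23 probes of the 45281 on the array. Of the 23, 19 exceeded the array median on at least 3 arrays and were kept, and 7 of the 9 genes were tested, among 12046 tested genes.

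RNA came from the central retina of mice whose strain is given as rd1/rd1, and as rd/rd in the sample titles, in which rods and then cones degenerate because of a mutation in the beta subunit of rod phosphodiesterase. Of the 6 samples, 3 were taken at 2 months and 3 at 8 months of age, and both ages carry the mutation, with no treatment and no healthy retina beside them. Each sample pooled 3 to 6 punches, 1.5 mm across, and the number of animals behind a pool is not stated in the labels. Values are log2 intensities of Illumina bead arrays. Changes are 8 months minus 2 months, tested with limma and adjusted over all tested genes, and each p-value reflects only how these pools vary.

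Probes of 2 genes of amacrine cells were bright at both ages. Slc32a1, the transporter that loads GABA and glycine into vesicles, lay between 12.91 and 13.07 in the 6 samples. The brighter probe of Calb2, the calcium-binding protein calretinin, averaged 13.34 at 2 months and 13.46 at 8 months, while its other probe had a change of −0.20. In bulk retina, fewer cells of a type and less RNA per cell cannot be told apart. The scale flattens near the array median of 7.19, where a probe cannot be told from background.

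No member passed the test. The 7 tested members had changes from −0.26 to 0.16 with a median of 0.07, and 5 were positive and 2 negative. None was called at an adjusted p below 0.05 (limma), against 0.224% of all tested genes, and 2 had an unadjusted p below 0.05, against 10.4% of all. The ages did not overlap in 2 of the 7, Tfap2a and Dab1, against 15% of all tested genes. All 12046 genes together had a median change of 0.000482, and the median size of a change, whatever its sign, was 0.0561, against 0.141 for the 7 members. It was 0.0557 for 23 other transcription factors of amacrine cells or their precursors. These sets were not matched for level, and the difference was not tested.

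**Figure D1:**
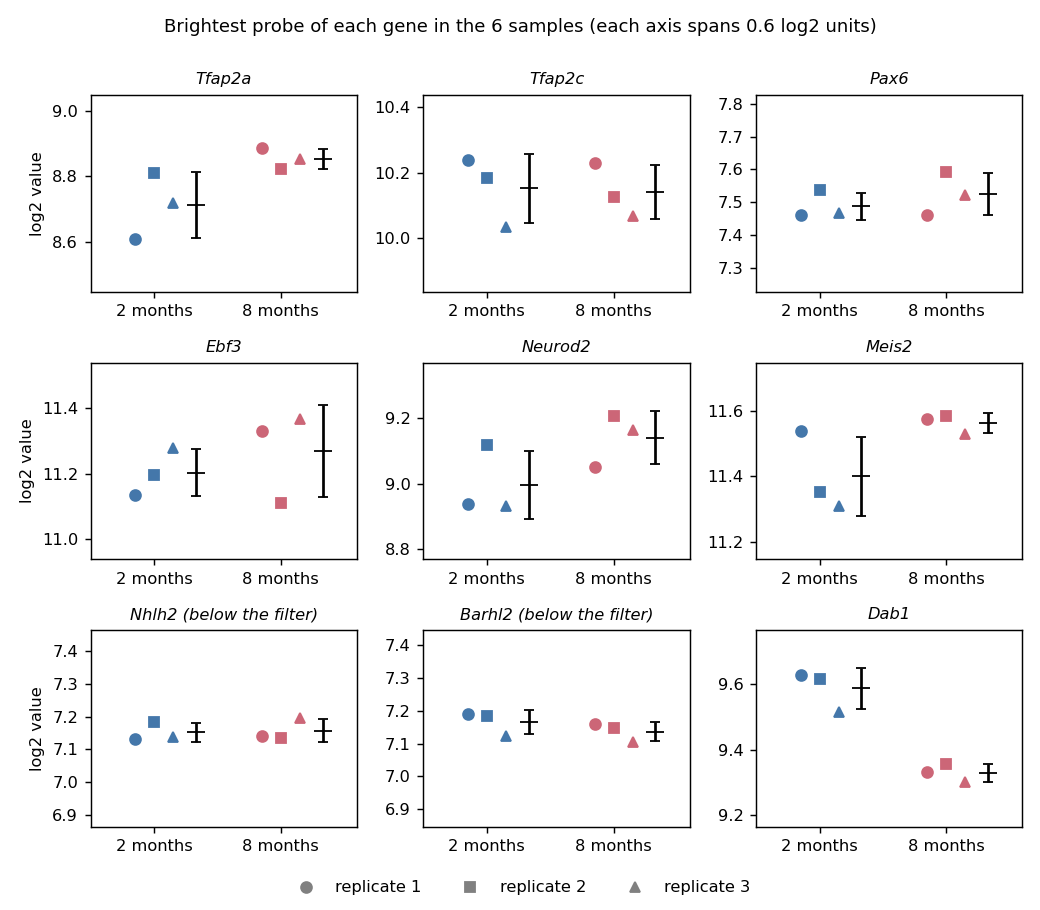
Deposited log2 values of the brightest probe of each of the 9 genes, for 3 samples at 2 months (blue) and 3 at 8 months (red), with the mean and SD of each age in black; every axis spans the same length on the log2 scale. Dab1 is the gene whose ages lie farthest apart, at 9.52 to 9.63 and 9.30 to 9.36, while most other panels overlap, and Nhlh2 and Barhl2 stay at the array median of 7.19.

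Tfap2a and Tfap2c belong to the AP-2 family, whose members are expressed in amacrine cells after they leave the cell cycle, Tfap2a also in horizontal cells. Tfap2a was at 8.61, 8.81 and 8.72 in 2 month replicates 1 to 3 and at 8.89, 8.82 and 8.85 in those of 8 months. The ages do not overlap, but 2 month replicate 2 lies just under the lowest 8 month value. The change was 0.14 (SE 0.0618, n = 3 per age, limma adjusted p = 0.49), with a 95% interval from −0.253% to 21.9%. The second probe of Tfap2a overlapped between ages, with a change of 0.06 (SE 0.0425). The other 3 had changes from −0.06 to 0.04 at levels between 7.11 and 7.37, close to background. Averaged over its 4 kept probes, the change of Tfap2a was 0.03.

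Tfap2c was at 10.24, 10.18 and 10.03 at 2 months and at 10.23, 10.12 and 10.07 at 8 months. Both ages cover almost the same range, and the change was −0.01 (SE 0.0713, limma adjusted p = 0.982), with a 95% interval from −11.6% to 11.5%. A second probe, between 8.91 and 9.17, had a change of 0.05 (SE 0.0817), and another, between 7.32 and 7.46, one of −0.03 (SE 0.042). The sign of the Tfap2c change turned under 7 of 17 alternatives, each time at a size of at most 0.07. Tfap2b, another AP-2 gene of amacrine and horizontal cells, was at 11.81 ± 0.093 (SD, n = 3) at 2 months and 11.95 ± 0.104 at 8 months.

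Pax6 is the paired-box homeodomain factor of retinal progenitors, and it persists in amacrine, horizontal and ganglion cells and in Müller glia. Its brighter probe was at 7.46, 7.54 and 7.47 at 2 months and at 7.46, 7.59 and 7.52 at 8 months. The values of both ages interleave a little above the array median, and the change was 0.04 (SE 0.0538, limma adjusted p = 0.896). The other probe stayed between 7.16 and 7.27, at background. The array therefore gives little information on Pax6: the 95% interval, from −5.99% to 12%, is on a scale that compresses differences at this level.

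Ebf3, Neurod2 and Meis2 mark subsets of amacrine cells. Ebf3, a helix-loop-helix factor found also in ganglion cells, was at 11.13, 11.20 and 11.28 at 2 months and at 11.33, 11.11 and 11.37 at 8 months. The lowest and the 2 highest values are all of 8 months, and the change was 0.07 (SE 0.0794, limma adjusted p = 0.863; 95% interval −7.96% to 19.1%). Its second probe, between 8.19 and 8.59, again had its highest values in 8 month replicates 1 and 3, with a change of 0.13 (SE 0.105).

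Neurod2, a basic helix-loop-helix factor of AII amacrine cells and some ganglion cells, was at 8.94, 9.12 and 8.93 at 2 months and at 9.05, 9.21 and 9.16 at 8 months. Replicate 2 of 2 months lies inside the 8 month range, and the change was 0.14 (SE 0.0707, limma adjusted p = 0.567; 95% interval −1.46% to 24%). The second probe was dimmer, at 7.38 to 7.51 against 7.52 to 7.60, so that the ages just missed each other, with a change of 0.09 (SE 0.0432).

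Meis2, a homeodomain factor found mainly in GABAergic amacrine cells, had the most positive change of the set. Its brightest probe was at 11.54, 11.35 and 11.31 at 2 months and at 11.57, 11.58 and 11.53 at 8 months. The 8 month values are tightly grouped and 2 month replicate 1 falls among them, and the change was 0.16 (SE 0.068, limma adjusted p = 0.469; 95% interval 0.25% to 25%). The second probe was at 9.08, 9.08 and 9.16 against 9.18, 9.48 and 9.55, with 8 month replicate 1 near the 2 month values, and had a change of 0.29 (SE 0.0951, limma adjusted p = 0.579 over all probes). The other 2 probes, annotated to cDNA clone records and not to the RefSeq transcript, lay between 7.14 and 7.27 in all samples.

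The single probes of Nhlh2 and Barhl2 did not pass the filter. Nhlh2, a basic helix-loop-helix factor of young neurons, lay between 7.13 and 7.20, and Barhl2, a homeodomain factor needed for amacrine subtypes and ganglion cell survival, between 7.10 and 7.19. Neither gene could be measured here at either age.

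Dab1 relays the signal of reelin from its receptors Vldlr and Lrp8. Its brightest probe was at 9.63, 9.62 and 9.52 at 2 months and at 9.33, 9.36 and 9.30 at 8 months. All 8 month values lie below all 2 month values, with a gap larger than the range within either age, and the change was −0.26 (SE 0.0516, n = 3 per age; 95% interval −23.1% to −9.02%). After adjustment over all genes this did not pass (limma adjusted p = 0.141, and from 0.106 to 0.794 over 17 alternatives). The other probes of Dab1 had changes of −0.05 (SE 0.0599) and −0.07 (SE 0.0311), at levels of 7.91 to 8.12 and 7.24 to 7.36, and both overlapped between ages. These 2 are annotated to another transcript record than the brightest probe, and the mean of all 3 probes changed by −0.13. Whether the probes differ in their change was not tested.

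Mean levels of red blood cell, horizontal cell, cone, rod and bipolar cell markers were lower at 8 months without overlap, as Dab1 was. Xist differs between samples but overlaps between the ages. The mean level of 4 red blood cell genes was 9.81 to 10.9 at 2 months and 8.95 to 9.00 at 8 months, and with it as a covariate Dab1 changed by −0.19 (limma adjusted p = 0.794). Because this level does not overlap between the ages, the fit can hardly separate it from age, and no gene at all was called with it. Xist, an RNA of female cells, was lower in 2 month replicates 1 and 2, at 9.40 and 8.73, than in the other 4 samples, at 10.48 to 11.10. The brighter probe of Eif2s3y, a Y chromosome gene, was at 7.79 and 8.27 in those 2 samples and at 7.10 to 7.18 in the other 4. Male RNA was thus seen in 2 month pools only, so sex is confounded in part with age. With Xist as a covariate Dab1 changed by −0.21 (limma adjusted p = 0.393). Mean horizontal cell levels (6 of 10 markers tested, 2 positive and 4 negative) were 9.42 to 9.45 at 2 months and 9.33 to 9.40 at 8 months, with Calb1 below the filter. This mean leans on Lhx1, with a change of −0.44. The other tested markers ran from −0.12, for Onecut2, to 0.14, for Tfap2b, and the mean without Lhx1 was not calculated. Mean cone levels (9 of 10 markers tested) were 9.81 to 10.17 and 8.52 to 9.13, with Opn1sw below the filter. Mean rod levels were 8.14 to 8.44 at 2 months and 7.73 to 7.92 at 8 months. Mean bipolar cell levels were 11.63 to 11.70 and 11.59 to 11.63, so that the ages just missed each other. The part of these signals in the Dab1 result was not tested.

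**Figure D2:**
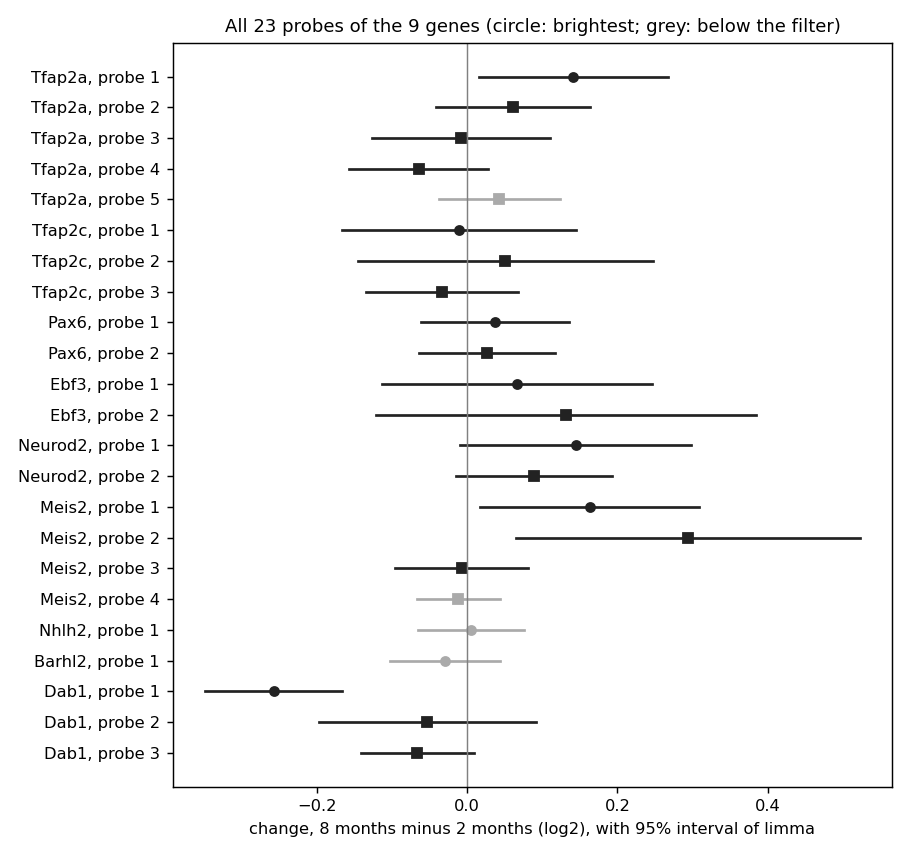
Change between the ages on the log2 scale (horizontal axis) for all 23 probes, brightest first within each gene, with the 95% interval of a limma fit over all 45281 probes without a filter. Circles are the brightest probe of a gene and grey marks are the 4 probes below the filter. The changes run from −0.26 for the first Dab1 probe to 0.29 for the second Meis2 probe, and the intervals of 4 probes leave out 0.

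Over all 23 probes, 13 had positive and 10 negative changes. In the fit over all probes none was called at an adjusted p below 0.05 (limma, against 0.0243% of all probes), and 4 had an unadjusted p below 0.05, against 6.84% of all: the brightest probes of Tfap2a and Dab1 and both bright probes of Meis2. The ages did not overlap for 4 probes, the first of Tfap2a, the second of Neurod2, the second of Meis2 and the first of Dab1, against 11.6% of all probes.

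Other transcription factors of amacrine cells or their precursors did not pass the test either. Of 32 listed, 23 were tested and none was called (limma), 12 were positive and 11 negative, and the median change was 0.001. At an unadjusted p below 0.05, 2 were higher and 2 lower, against 10.4% of all tested genes in either direction. Prdm13, a zinc finger factor that promotes amacrine fate, was at 8.78, 8.62 and 8.86 at 2 months and at 9.14, 8.97 and 9.09 at 8 months, which do not overlap. Its change was 0.31 (SE 0.077, limma adjusted p = 0.226). Lmo4, a cofactor of LIM domain factors found in several retinal neurons, had a change of −0.31 (SE 0.112, limma adjusted p = 0.391) and one of −0.05 at its other probe. Gbx2, a homeodomain factor of a small amacrine population, had a change of 0.17 (SE 0.0611, limma adjusted p = 0.393). Factors of the starburst amacrine cell, Isl1 and Sox2, which bipolar cells and Müller glia also express, had changes of −0.17 (SE 0.068) and −0.04 (SE 0.097).

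None of the partners of Dab1 in reelin signalling passed the test. All 11 listed genes were tested with limma, and the median change was 0.03. Of them, 1 had an unadjusted p below 0.05, against 10.4% of all tested genes. Reln, the secreted ligand, had a change of 0.17 (SE 0.0863, limma adjusted p = 0.596). The receptors Vldlr and Lrp8 had changes of −0.05 (SE 0.119) and −0.03 (SE 0.084). Among the kinases, Cdk5 had a change of −0.18 (SE 0.0791) and its activator Cdk5r1 one of 0.15 (SE 0.0621).

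Among the genes for transmitters and peptides of amacrine cells, 2 passed the test, both of them neuropeptides, against 0.224% of all tested genes. Of 11 neuropeptide genes 8 were tested, 7 of them positive, and the median change was 0.30. Vip, the precursor of vasoactive intestinal peptide, rose from 9.33, 9.39 and 9.37 to 10.18, 10.08 and 10.32, a change of 0.83 (SE 0.0675, limma adjusted p = 0.00936). Tac1, the precursor of substance P, rose from 9.20, 9.15 and 9.05 to 10.43, 9.88 and 10.10, a change of 1.00 (SE 0.13, limma adjusted p = 0.049). Every 8 month value of both peptides lies well above every 2 month value, while the second probe of each gene was below the filter. Sst, the precursor of somatostatin, had a change of 0.45 (SE 0.0625) that did not pass (limma adjusted p = 0.0555).

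Whichever sample was left out, the change stayed at 0.76 to 0.88 for Vip and at 0.86 to 1.13 for Tac1. Neither call held in all of these fits, in which 2 to 12 genes were called higher, against 19 with all 6 samples. That of Vip was lost without 2 month replicate 1 (0.81, limma adjusted p = 0.0828) or 8 month replicate 1 (0.83, limma adjusted p = 0.0765). That of Tac1 was lost without 2 month replicate 1 (1.04), 2 (1.01) or 3 (0.96) and without 8 month replicate 1 (0.86) or 3 (1.02), with limma adjusted p-values from 0.0783 to 0.178 in these 5. Both were also lost with the haemoglobin level as a covariate (limma adjusted p = 0.286 for Vip and 0.553 for Tac1) or with Xist (0.0887 and 0.189). Xist differs with sex, which is confounded in part with age. The haemoglobin level does not overlap between the ages, so that fit can hardly separate it from age, and no gene at all was called with it. Tac1 alone was lost when dim probes were left in (0.103) and with either other choice of probe (0.0532 and 0.0548).

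The GABA and glycine list held 6 tested genes of 8, 4 positive and 2 negative, with a median change of 0.13 and none called (limma). Of the 6, 3 had an unadjusted p below 0.05, against 10.4% of all tested genes. Gad2, which makes GABA, was at 10.06, 10.23 and 10.38 at 2 months and at 10.65, 10.66 and 10.87 at 8 months. The ages do not overlap, and the change was 0.51 (SE 0.0964, limma adjusted p = 0.135). Abat, which breaks GABA down, had a change of 0.21 (SE 0.0501) and Slc32a1 one of 0.13 (SE 0.046). Slc6a9, the glycine transporter of glycinergic amacrine cells, had a change of −0.11 (SE 0.0605).

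Cholinergic and dopaminergic genes, 9 of 9 tested, had a median change of 0.01 with none called (limma). None had an unadjusted p below 0.05, against 10.4% of all tested genes. Chat, the acetylcholine-synthesising enzyme of starburst cells, had a change of 0.17 (SE 0.0746), Slc5a7, the choline transporter, one of −0.11 (SE 0.0818), and Ddc, of dopamine synthesis, one of −0.08 (SE 0.051). Th, the dopaminergic amacrine enzyme, was at 7.24 to 7.40 in all samples, close to background.

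Of 14 other amacrine markers 12 were tested, 8 positive and 4 negative, with a median change of 0.04 and none called (limma). In each direction 1 had an unadjusted p below 0.05, against 10.4% of all tested genes in either direction. Slc17a8, the vesicular glutamate transporter VGLUT3 of one amacrine type, was at 9.33, 9.41 and 9.27 at 2 months and at 9.10, 9.04 and 8.95 at 8 months. As for Dab1, all 8 month values lie below those of 2 months, and the change was −0.31 (SE 0.0613, limma adjusted p = 0.14). C1ql2 and Rbfox3 had changes of 0.13 (SE 0.0507) and 0.26 (SE 0.114).

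**Figure D3:**
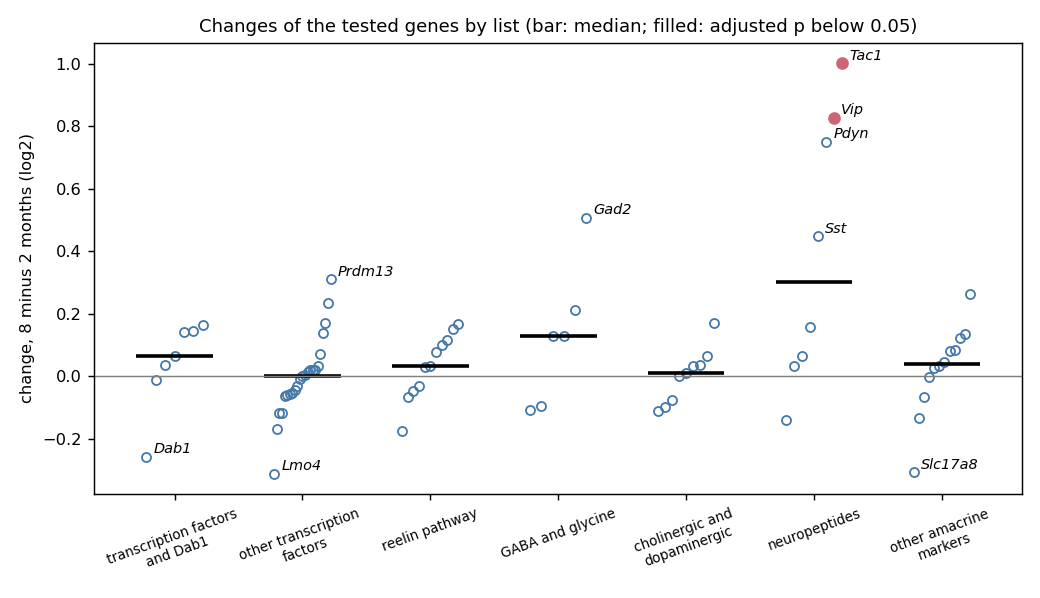
Change of each tested gene between the ages (vertical axis, log2) in 7 lists of amacrine genes; each circle is a gene, bars are list medians, and filled circles have a limma adjusted p below 0.05 over all genes. Vip and Tac1, at 0.83 and 1.00, are the filled circles. The 2 transcription factor columns, the first of which includes Dab1, run from −0.31 to 0.31.

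Set side by side, the largest upper bound of a 95% interval at the brightest probes of the 7 tested members was 0.32, for Meis2, and the lower bound for Vip was 0.67 and for Tac1 0.70. These 2 peptides were picked because they passed the test. Lower bounds of the other tested peptides ran from −0.34, for Cck, to 0.43, for Pdyn, with Sst at 0.30 and most of them negative. At other member probes upper bounds reached 0.52, for the second probe of Meis2, and 0.38, for the second of Ebf3. Centred on its 6-sample mean, the mean level of the 7 members was −0.02, 0.02 and −0.06 in the 2 month samples and 0.03, 0.02 and 0.02 in those of 8 months. The 8 tested peptides were at −0.17, −0.24 and −0.18 and at 0.23, 0.14 and 0.23, and the 6 GABA and glycine genes at −0.07, −0.08 and −0.05 and at 0.04, 0.04 and 0.11. The members' mean sums changes of both signs. Dab1, at −0.26, offsets 5 positive changes in it, and the mean without Dab1 was not calculated. The difference between these lists was not tested.

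**Figure D4:**
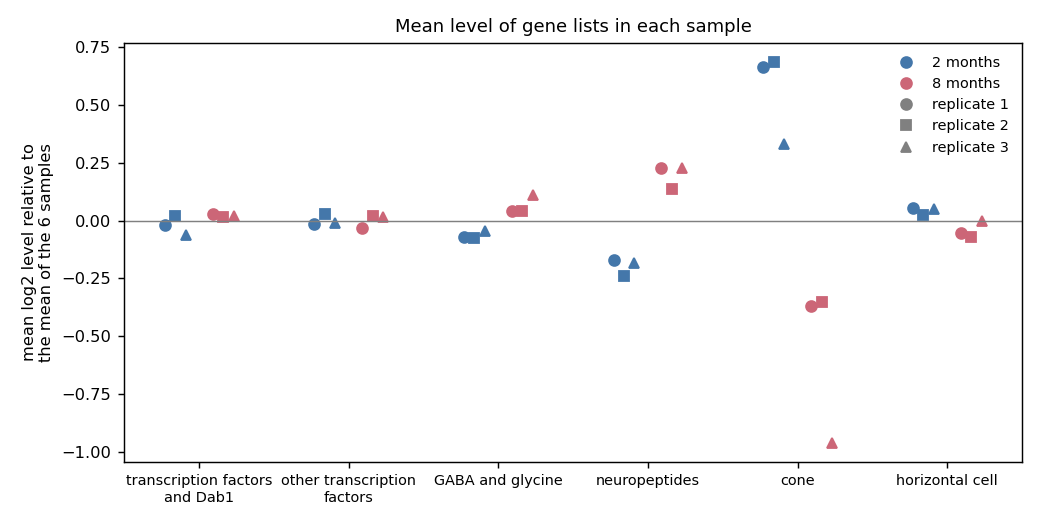
Mean log2 level of 6 gene lists in each sample, relative to the mean of the 6 samples; blue is 2 months, red is 8 months and symbols are replicates. Both transcription factor lists stay between −0.06 and 0.03 in every sample, but the first includes Dab1. Its change of −0.26 offsets positive changes of factors in that mean, which was not calculated without Dab1. The GABA and glycine, neuropeptide, cone and horizontal cell lists separate by age, the cone list with its lowest value, −0.96, in 8 month replicate 3. The horizontal cell list leans on Lhx1, with a change of −0.44.

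Other cells that express some of the members were read from their own markers. Ganglion cell markers (10 of 15 tested) had a median change of 0.08, with mean levels of 10.41 to 10.46 at 2 months and 10.33 to 10.64 at 8 months. Of the 10, 1 did not overlap between ages, against 15% of all tested genes. Müller glia markers (12 of 14 tested) had a median of −0.02, with mean levels of 10.67 to 10.73 and 10.60 to 10.72. Lens, cornea and ciliary body markers (12 of 14 tested), which belong to tissues that also use Pax6 and AP-2 factors, had a median of −0.10, with mean levels of 7.67 to 8.34 and 7.60 to 8.05. No gene of these 3 lists was called (limma). At an unadjusted p below 0.05, 3 Müller glia and 1 lens, cornea or ciliary body gene were lower, against 10.4% of all tested genes in either direction. The part of these tissues in the values of the members was not tested.

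The tested genes most like the members over the 6 samples, by mean absolute difference of mean-centred log2 values and among genes of similar spread, were Igfbp6 for Tfap2a (0.0158), Mmp11 for Tfap2c (0.0177), Tbc1d24 for Pax6 (0.0109) and Helz for Ebf3 (0.00737). For Neurod2, Meis2 and Dab1 they were Ugt1a10 (0.0147), Tceal6 (0.0159) and Fabp3 (0.0196). None of the 7 was itself called, and each was the nearest of 4351 to 6234 candidates. No member was the nearest gene of another.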

How the data were processed

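Each probe has 1 deposited log2 value per sample, and all values fall between 6.98 and 14.5, from which the log2 scale was read. The sorted arrays agree within 0.00307 at every rank, as a quantile-type normalization by the authors leaves them. Neither the software nor the background correction is stated in the labels, and detection p-values were not used here. Signal over background and the number of arrays, 3 per age, limit the precision.

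Groups came from the sample titles. Probes above percentile 50 of their array in 3 or more samples were kept (22458 probes), and a gene was its kept probe with the highest mean. Gene symbols, possibly outdated, are those of GEO's platform annotation, with 1 symbol for 34885 probes, several for 18 and none for 10378. The test was limma's moderated one (version 3.58.1, R 4.3.3, default prior, two-sided, Benjamini-Hochberg over 12046 genes, threshold 0.05), with 4 residual and 3.31 prior degrees of freedom. Standard errors and intervals of a gene's brightest probe come from this fit, and those of other probes from a fit over all 45281 probes. The test was checked on simulated data.

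Named were all 9 members at every probe, the 3 genes with the smallest p of each amacrine list, and for each member the most similar gene. Tfap2b, Isl1, Sox2, Vldlr, Lrp8, Slc6a9, Th, Calb2, Cck, Pdyn, Eif2s3y, Lhx1 and Onecut2 were added after their values were seen. Members and lists were chosen with earlier results of these data known. Of 226 list entries, 21 matched no probe with a single symbol and were not analysed here. The alternatives were 3 normalizations, 2 filters, 2 choices of probe, an intensity trend, the replicate number as a block, haemoglobin or Xist as a covariate, and leaving out each sample.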

Additional observations from a re-analysis of the deposited data

How the results depend on the processing

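Under all 17 alternatives no member gene was called in either direction (limma), and under the 13 that apply to single probes no member probe was. Changes of Tfap2a, Neurod2, Meis2 and Dab1 kept their sign under all 17, and that of Pax6 under 16, since it was not tested under the stricter filter. That of Tfap2c was positive with the mean of the kept probes (0.00233), the kept probe with the largest SD (0.0510), the haemoglobin covariate (0.0562) and the Xist covariate (0.0673), and leaving out 1 sample gave −0.0697 to 0.0324. Ebf3 changed by −0.00164 with the Xist covariate. With the haemoglobin covariate Gbx2 changed by −0.0157, Slc5a7 by 0.12 and Rbfox3 by −0.11, and with the probe of largest SD Ddc by 0.0368. The cause of these turns was not tested.

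Over all genes, 19 were higher and 8 lower. These counts were 5 and 2 with no filter, 38 and 35 with the stricter one, 9 and 3 with the probe of largest SD, 44 and 48 with an intensity trend, 0 and 0 with the haemoglobin covariate (461 and 375 at an unadjusted p below 0.05) and 2 and 0 with the Xist covariate (514 and 535). Leaving out 1 sample gave 2 to 12 higher and 0 to 19 lower. With the replicate number as a block they were 14 and 18. These numbers come from the titles, while the descriptions give the 2 month samples the replicate numbers 1, 1 and 2. A further number in the descriptions is 7, 8 and 9 for 2 month replicates 1 to 3 and 1, 2 and 10 for those of 8 months. Deviations of same-numbered samples correlated at 0.0239 to 0.16, so the numbers were not taken as pairs, although every sample correlated best with its own number.

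The median change of the members was 0.13 with the probe of largest SD and 0.0324 to 0.111 with 1 sample left out. That of neuropeptides was 0.0647 with no filter and 0.449 with the stricter one, which also gave 0.0557 for the reelin pathway and −0.0317 for cholinergic and dopaminergic genes. GABA and glycine genes had 0.17 with the probe of largest SD and 0.0752 with the haemoglobin covariate, which gave 0.0576 for cholinergic and dopaminergic genes. With 1 sample left out the reelin pathway had 0.00475 to 0.0862 and GABA and glycine genes 0.104 to 0.149. Gad2 and Sst passed under the stricter filter and the intensity trend. Signal near background limits Pax6, Nhlh2, Barhl2 and Th.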
